A study of Mus musculus with 2 samples.

Results

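A set of 10 genes of TGF-beta and activin signalling were followed across the cell types of chimeric mouse lungs. They were taken by symbol from the 32285 genes of both count matrices, and all 10 were present. They comprised the ligand genes Tgfb1, Tgfb2, Tgfb3 and Inhbb, the receptor genes Tgfbr1, Tgfbr2 and Tgfbr3, and the genes of the inhibitors Bambi, Fst and Smad7. The lungs came from C57Bl mice killed 6 months after they had received a suspension of single cells labelled with the red reporter tdTomato. Cell suspensions from the lungs of 3 such mice were combined. Live CD45-negative cells, that is cells without the leukocyte surface marker, were sorted by the reporter and sequenced in droplets on the 10x Genomics platform. Cells with tdTomato gave the donor library and C57Bl cells without it gave the recipient library. The donors' strain, the animals' age and the promoter behind the reporter were not given in the sources used here.

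Each group was 1 library from pooled lungs, so no test between groups was possible. Every interval below is a 95% interval that covers counting error only, not differences between animals or sorts. The deposited matrices held no tdTomato gene, so the sort could not be checked in the transcripts.

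TGF-beta ligands are secreted in a latent form, held by binding proteins in the matrix and released by integrins and proteases. The active ligand brings together the type II receptor, encoded by Tgfbr2, and the type I receptor, encoded by Tgfbr1, which phosphorylates Smad proteins that act on transcription. Betaglycan, encoded by Tgfbr3, presents ligand to this pair, Smad7 and the decoy receptor Bambi damp the signal, and follistatin, encoded by Fst, binds and blocks activins. Inhbb encodes the beta-B subunit shared by activin B and inhibin B. In the lung the pathway is known for its roles in vessel and alveolar development, in fibroblast activation and in fibrosis.

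The bases upstream of 3 ligand genes are shown because their patterns differ between the capillary types described below: Tgfb2 and Inhbb were far lower in aerocytes than in general capillary cells, and Tgfb1 was not. The sequences are the 250 bases before each start in RefSeq on GRCm38.p6, at chr7:25686752-25687001 on the + strand for Tgfb1, chr1:186705990-186706239 on the - strand for Tgfb2 and chr1:119422249-119422498 on the - strand for Inhbb. Capitals mark every match, on either strand, to the TATA box, searched as TATAAA, the GC box, searched as GGGCGG, and the E-box, searched as CACGTG. No matches overlapped.
Tgfb1: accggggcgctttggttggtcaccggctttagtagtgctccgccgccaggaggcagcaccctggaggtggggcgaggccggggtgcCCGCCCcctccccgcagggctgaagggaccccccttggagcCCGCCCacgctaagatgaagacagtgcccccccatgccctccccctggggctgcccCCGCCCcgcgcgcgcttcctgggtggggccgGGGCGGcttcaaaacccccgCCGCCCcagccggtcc
Tgfb2: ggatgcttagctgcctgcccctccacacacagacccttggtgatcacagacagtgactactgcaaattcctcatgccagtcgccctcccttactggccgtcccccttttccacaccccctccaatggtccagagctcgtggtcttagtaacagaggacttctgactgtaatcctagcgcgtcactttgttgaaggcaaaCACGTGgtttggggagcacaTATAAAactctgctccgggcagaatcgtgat
Inhbb: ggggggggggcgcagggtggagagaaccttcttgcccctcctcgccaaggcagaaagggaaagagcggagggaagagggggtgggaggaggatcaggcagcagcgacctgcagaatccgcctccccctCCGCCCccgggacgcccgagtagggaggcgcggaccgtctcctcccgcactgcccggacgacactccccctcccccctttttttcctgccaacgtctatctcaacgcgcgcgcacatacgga
The Tgfb1 window held 5 GC boxes at a GC content of 75.2%, and the Inhbb window held 1 GC box at 68.0%. The Tgfb2 window had a GC content of 53.6%, with 1 TATA box that began 31 bases before the start and 1 E-box that began 51 bases before it. Among 32817 RefSeq promoter windows of the same length, 12.4% held TATAAA, 32.7% GGGCGG and 6.02% CACGTG on either strand. RefSeq windows were matched for 5 of the 10 genes. A match describes letters in these windows only.

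The donor library held 6319 barcodes and 37997269 UMIs (molecular tags, each standing for 1 captured transcript), and the recipient library 3784 barcodes and 26201315 UMIs. The libraries shared 816 cell barcodes, which were kept where they had more UMIs, and the level without any of them is given wherever it left the interval of the level printed. After filters, 4578 donor cells (median 6089 UMIs) and 3199 recipient cells (median 6385 UMIs) remained. Cells were assigned to a type by the UMIs of marker genes, none of which is among the 10 genes, and a type name below stands for that gate. Among the markers were Gpihbp1, Plvap and Aplnr for general capillary cells, Car4, Ednrb and Apln for aerocytes, Vwf and Slc6a2 for venous cells, Prox1 for lymphatic cells and Higd1b and Cox4i2 for pericytes. Types with at least 50 cells in the donor library were general capillary cells (2584), the capillary cells that renew the bed, aerocytes (1455), the large capillary cells of gas exchange, and venous cells (68). The recipient library had 416, 604 and 72 of these, and 72 lymphatic endothelial cells, 171 alveolar type 1 cells, 518 pericytes, 751 alveolar fibroblasts, 68 adventitial fibroblasts and 159 myofibroblasts. Shared barcodes made up 138 of the 171 alveolar type 1 cells and 50 of the 68 adventitial fibroblasts, against 5 of the 416 general capillary cells and 9 of the 604 aerocytes. Every gated type with 50 cells had UMIs of all its own markers. The venous cells also carried general capillary markers, at a summed 4048 CPM (UMIs of a gene in 1000000 UMIs of the type) beside 10248 CPM of venous markers in the donor library and 3539 beside 10023 CPM in the recipient library.

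**Figure D1:**
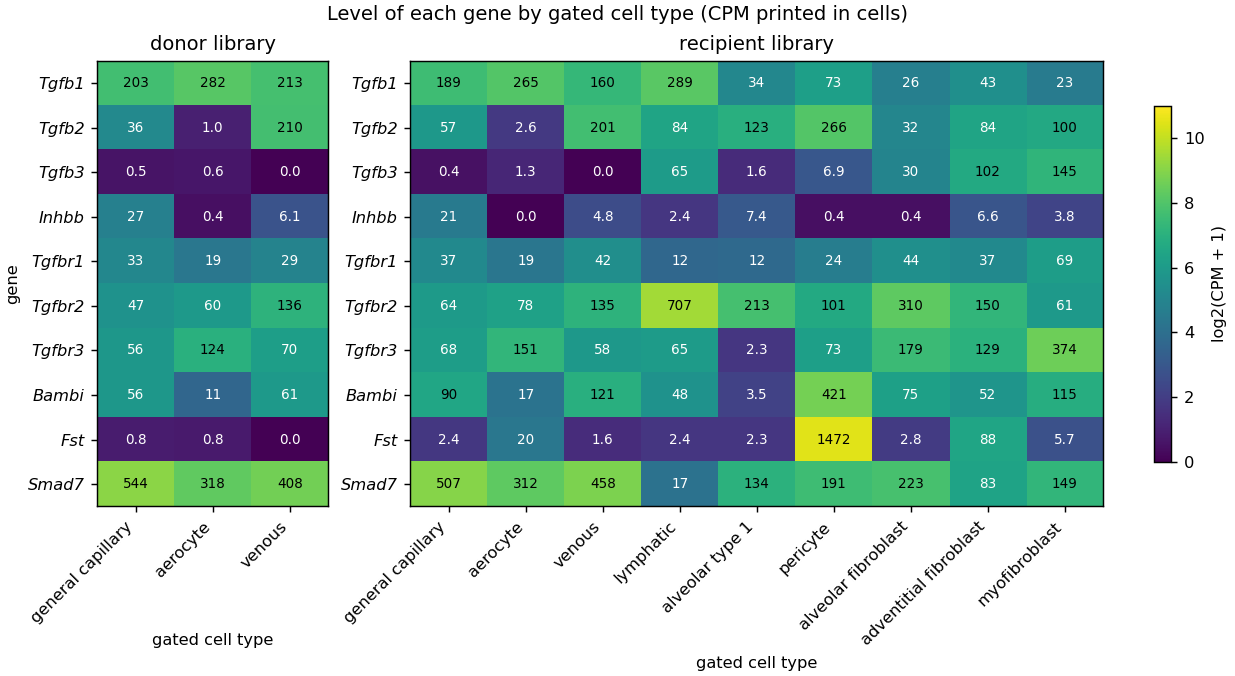
Level of each gene in every gated type with at least 50 cells, in the donor library (left) and the recipient library (right). Colour is log2(CPM + 1) of the summed UMIs and the printed number is CPM. A row can be read across types; Fst stands out in pericytes (1472 CPM), Smad7 in blood endothelium and Tgfbr2 in lymphatic cells (707 CPM).

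Tgfb1, the most widely studied ligand of the family, was highest in endothelium. In the donor library its level was 282 CPM (interval 273 to 291) in aerocytes, 213 CPM (179 to 252) in venous cells and 203 CPM (196 to 210) in general capillary cells. In the recipient library it was 289 CPM (240 to 346) in lymphatic cells, 265 CPM (251 to 281) in aerocytes, 189 CPM (172 to 207) in general capillary cells and 160 CPM (130 to 194) in venous cells. All other recipient types lay lower, running from 73.4 CPM in pericytes to 22.8 CPM in myofibroblasts. The lymphatic and aerocyte levels could not be told apart by counting error, nor could those of general capillary and venous cells. From adventitial fibroblasts downwards, each type could not be told apart from the next in order. Without shared barcodes the lymphatic level was 249 CPM.

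Tgfb2 separated the blood vessel types. Venous cells had 210 CPM (177 to 248) and general capillary cells 35.6 CPM (32.6 to 38.7) in the donor library, whereas donor aerocytes had 0.981 CPM (0.522 to 1.68), from 13 UMIs in 1455 cells. The recipient library had the same order, with 201 CPM (168 to 240) in venous cells, 57.4 CPM (48.3 to 67.7) in general capillary cells and 2.59 CPM (1.34 to 4.53) in aerocytes. Venous cells with a Tgfb2 UMI were 45 of 68 in the donor library (66.2%) and 50 of 72 in the recipient library (69.4%), against 13.1% and 18.5% of general capillary cells. With each cell thinned to 2000 UMIs, the venous shares were 38.2% in the donor and 33.3% in the recipient library, and that of recipient general capillary cells was 7.97%. The 31 donor arterial cells, too few for a level, held 48 Tgfb2 UMIs in 7 cells.

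Outside blood endothelium, recipient pericytes had the most Tgfb2, at 266 CPM (247 to 286), 4.63 times the general capillary level (3.86 to 5.59). The 47 donor pericytes, too few for a level, held 71 Tgfb2 UMIs in 33 cells. Alveolar type 1 cells followed at 123 CPM (110 to 137), and at 136 CPM in the 33 of them without a shared barcode. Myofibroblasts had 99.8 CPM, adventitial fibroblasts 84.0, lymphatic cells 83.6 and alveolar fibroblasts 32.5 CPM. The adventitial value rested on few cells, since 1 cell held 32 of the 64 UMIs, and the 18 cells without a shared barcode had 9.94 CPM.

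Tgfb3 was highest in fibroblasts and lymphatic cells. Its level in the recipient library was 145 CPM (123 to 170) in myofibroblasts, 102 CPM (80.9 to 128) in adventitial fibroblasts, 64.5 CPM (42.5 to 93.9) in lymphatic cells and 30.4 CPM (25.9 to 35.5) in alveolar fibroblasts, each apart from its neighbours in this order by more than counting error. Without shared barcodes the level was 24.8 CPM in alveolar fibroblasts and, in 33 alveolar type 1 cells, 13.0 CPM, against 1.56 CPM with them. The 171 alveolar type 1 cells held 4 Tgfb3 UMIs in all. Pericytes had 6.94 CPM. Blood endothelium was near the floor of detection in both libraries, with 7 UMIs in 2584 general capillary cells, 8 in 1455 aerocytes and 0 in 68 venous cells of the donor library, and 1, 6 and 0 UMIs in those types of the recipient library. A floor of 3 UMIs stands at 4.57 CPM in the donor venous cells and 4.83 CPM in the recipient venous cells. The interval of the 0 in donor venous cells reached 5.62 CPM.

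Inhbb was highest in general capillary cells among the recipient types with at least 50 cells. These cells had 26.8 CPM (24.2 to 29.5) in the donor library and 21.2 CPM (15.8 to 27.8) in the recipient library. Donor aerocytes had 5 UMIs (0.377 CPM), all in 3 cells, and recipient aerocytes had 0, where a floor of 3 UMIs stands at 0.648 CPM. The share of cells with an Inhbb UMI was 10.1% of donor general capillary cells at a median of 5384 UMIs and 0.206% of donor aerocytes at a median of 8843 UMIs. In the recipient library it was 7.45% of general capillary cells at a median of 5525 UMIs and 0 of 604 aerocytes at 7580. The next recipient type was alveolar type 1 at 7.41 CPM, and it could not be told apart from the adventitial fibroblasts at 6.56 CPM, which had 0 CPM in the 18 cells without a shared barcode. A UMI was found in 8.77% of alveolar type 1 cells at a median of 15532 UMIs, and in 0% of them after thinning to 2000 UMIs, against 3.86% of recipient general capillary cells. The 4 donor ciliated cells, too few for a level, held 6 Inhbb UMIs in 2 cells.

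Within general capillary cells, Inhbb went with Esm1, a gene of endothelial tip cells that is not used in the gate. This split was chosen with the data in view. Donor general capillary cells with an Esm1 UMI (546 cells) had 67.1 CPM of Inhbb (58.6 to 76.6) and those without (2038 cells) 15.2 CPM (13.1 to 17.7). In the recipient library the 81 cells with Esm1 had 70.6 CPM (48.9 to 98.7) and the 335 without had 9.11 CPM (5.40 to 14.4). Cells with Esm1 thus held 55.7% of the Inhbb UMIs of donor general capillary cells and 65.4% of those of recipient general capillary cells. Depth was alike, with medians of 5553 and 5326 UMIs in donor cells with and without Esm1 and 5439 and 5540 in recipient cells. Tgfb2 was also higher in the cells with Esm1, at 58.6 against 29.0 CPM in the donor library and 89.3 against 49.6 CPM in the recipient library, but its share of cells in the recipient library was 19.8% with Esm1 and 18.2% without. The intervals of the 2 recipient shares of Tgfb2 overlapped.

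**Figure D2:**
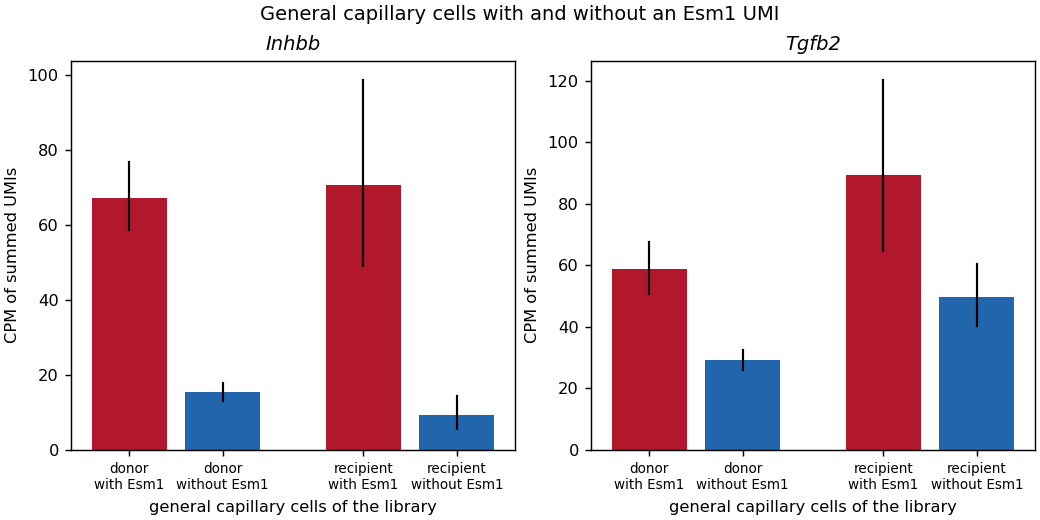
Inhbb (left) and Tgfb2 (right) in general capillary cells with and without an Esm1 UMI, as CPM of the summed UMIs of each set of cells. Black lines are counting intervals. Inhbb stood at 67.1 and 70.6 CPM in donor and recipient cells with Esm1, above 15.2 and 9.11 CPM in those without.

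Of the receptors, Tgfbr2, the ligand-binding type II receptor, had its highest level in lymphatic endothelium. Recipient lymphatic cells had 707 CPM (629 to 793), 11.1 times the general capillary level (9.15 to 13.6), and 66 of 72 cells had a UMI. The 4 donor lymphatic cells held 28 Tgfbr2 UMIs, with at least 1 in each. Recipient alveolar fibroblasts had 310 CPM (295 to 325), or 289 CPM without shared barcodes, and alveolar type 1 cells 213 CPM (196 to 232), or 169 CPM in the 33 without a shared barcode. Venous cells had 136 CPM (109 to 167) in the donor library and 135 CPM (108 to 168) in the recipient library, above aerocytes at 59.7 and 78.0 CPM and general capillary cells at 47.1 and 63.5 CPM. Myofibroblasts were lowest of the recipient types at 60.8 CPM, a level that could not be told apart from that of recipient general capillary cells.

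Tgfbr3, the co-receptor betaglycan, ran in another order. Recipient myofibroblasts had 374 CPM (338 to 413), with a UMI in 140 of 159 cells, alveolar fibroblasts 179 CPM (168 to 190), aerocytes 151 CPM (140 to 163) and adventitial fibroblasts 129 CPM (104 to 157). Pericytes, general capillary cells, lymphatic cells and venous cells lay between 72.7 and 58.0 CPM and their neighbours in this order could not be told apart. Alveolar type 1 cells had 6 UMIs in 171 cells (2.34 CPM), and 0 in the 33 cells without a shared barcode. In the donor library aerocytes had 124 CPM (118 to 130), venous cells 70.1 CPM and general capillary cells 56.4 CPM.

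Tgfbr1, the type I receptor, ranged from 69.4 CPM (54.4 to 87.2) in recipient myofibroblasts to 11.9 CPM (3.88 to 27.9) in recipient lymphatic cells. Alveolar fibroblasts (44.2 CPM), venous cells (41.9), adventitial fibroblasts (36.7) and general capillary cells (36.6) could not be told apart, each from the next in this order, while myofibroblasts lay above them and pericytes (24.5 CPM) below. The lymphatic cells, highest in Tgfbr2, were thus at the low end for Tgfbr1, next to alveolar type 1 cells at 12.5 CPM. Their Tgfbr1 value rests on 5 UMIs and was 17.8 CPM without shared barcodes, against 6.48 CPM in alveolar type 1 cells.

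Fst, the secreted activin antagonist, was highest in pericytes, the mural cells of capillaries. Recipient pericytes had 1472 CPM (1427 to 1518), 603 times the general capillary level of 2.44 CPM (ratio interval 277 to 1643), with a UMI in 497 of 518 cells (95.9%). The 47 donor pericytes held 386 Fst UMIs in 44 cells (93.6%). The share of recipient general capillary cells with a UMI was 1.44%. Adventitial fibroblasts came next at 87.9 CPM, but 42 of their 67 UMIs lay in 3 cells, and the 18 without a shared barcode had 268 CPM. Aerocytes of the recipient library had 19.7 CPM, described below, and the other recipient types at most 5.70 CPM. Without shared barcodes Fst was 1.43 CPM in alveolar fibroblasts and 6.48 CPM in 33 alveolar type 1 cells, against 2.80 and 2.34 CPM with them. The 171 alveolar type 1 cells held 6 Fst UMIs in all.

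Bambi, a receptor-like protein without a kinase, was also highest in pericytes. Recipient pericytes had 421 CPM (397 to 446), with a UMI in 79.9% of cells, and the 47 donor pericytes held 128 UMIs in 36 cells. Recipient venous cells (121 CPM) and myofibroblasts (115 CPM) followed and could not be told apart, then general capillary cells at 90.0 CPM, alveolar fibroblasts at 74.7 (66.7 without shared barcodes), adventitial fibroblasts at 52.5 and lymphatic cells at 47.8 CPM. Aerocytes had 11.4 CPM (9.65 to 13.4) in the donor library and 17.3 CPM (13.7 to 21.5) in the recipient library. Alveolar type 1 cells had 9 UMIs (3.51 CPM).

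Smad7, the inhibitory Smad that blocks type I receptors, was highest in blood endothelium and lowest, among the recipient types, in lymphatic endothelium. General capillary cells had 544 CPM (532 to 556) in the donor library and 507 CPM (479 to 536) in the recipient library. Venous cells had 408 CPM (361 to 460) and 458 CPM (406 to 514), and aerocytes 318 CPM (308 to 327) and 312 CPM (296 to 329). Recipient lymphatic cells had 7 UMIs in 72 cells, 16.7 CPM (6.73 to 34.5), which was 0.0330 times the general capillary level (0.0132 to 0.0682). The 4 donor lymphatic cells held 6 Smad7 UMIs, all in 1 cell. The 31 donor arterial cells, too few for a level, held 198 Smad7 UMIs in 29 cells. Alveolar fibroblasts had 223 CPM, pericytes 191, myofibroblasts 149, alveolar type 1 cells 134 and adventitial fibroblasts 82.7 CPM. Without shared barcodes the level was 90.8 CPM in 33 alveolar type 1 cells and 109 CPM in 18 adventitial fibroblasts.

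The comparison of the study was donor against recipient cells, and it was made within each endothelial type. A gene was counted as apart when its CPM differed by 1.5-fold or more and the interval of the ratio left out 1, among genes with at least 20 UMIs in both sums together. In general capillary cells 2 of the 8 genes tested were lower in the donor library, Tgfb2 and Bambi, and 0 were higher; over all 12098 genes 9.55% were apart, 3.65% higher and 5.9% lower. Tgfb2 had 525 UMIs (35.6 CPM) in donor cells and 141 UMIs (57.4 CPM) in recipient cells, a ratio of 0.620 (0.514 to 0.752). Bambi had 820 UMIs (55.5 CPM) in donor cells and 221 (90.0 CPM) in recipient cells, a ratio of 0.617 (0.532 to 0.720). Neither was 2-fold apart. The median log2 ratio of the 8 was -0.22, beside -0.0049 over all genes tested. For the genes tested in aerocytes it was -0.34, beside -0.023 over all genes, and in venous cells 0.0027, beside 0.032. In general capillary cells Tgfbr2 at 0.742 and Tgfbr3 at 0.825 had intervals below 1 without reaching 1.5-fold. Smad7 at 1.07 (1.01 to 1.14) had one just above 1. Tgfb1 at 1.07, Tgfbr1 at 0.897 and Inhbb at 1.26 had intervals that included 1. Also short of 1.5-fold were Tgfbr2 at 0.766 (0.675 to 0.869) and Tgfbr3 at 0.819 (0.749 to 0.896) in aerocytes. The same held for Tgfb1 at 1.34 (1.03 to 1.75) in venous cells.

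Tgfb2 was lower in donor general capillary cells at both levels of venous markers. Cells with at least 10 venous marker UMIs were 15.2% of donor and 15.9% of recipient general capillary cells, and their Tgfb2 level was 47.4 CPM in donor and 95.7 CPM in recipient cells. In the cells under that limit it was 32.6 CPM in donor and 47.8 CPM in recipient cells, a log2 ratio of -0.55 that no longer reached 1.5-fold, against -0.69 over all general capillary cells. This split was chosen after its values were seen. Bambi kept a log2 ratio of -0.69 among the same cells. Pericytes have much Bambi and Tgfb2, and summed pericyte markers were 12.9 CPM in donor and 38.3 CPM in recipient general capillary cells, 0.139% and 0.411% of the pericyte level. At that share, pericyte RNA would hold 0.585 CPM of Bambi in donor and 1.73 CPM in recipient general capillary cells, beside measured levels of 55.5 CPM in donor and 90.0 CPM in recipient cells.

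In aerocytes 3 of 8 genes tested were lower in the donor library, Tgfb2, Fst and Bambi, and 0 were higher; over 11531 genes 5.38% were apart, 1.21% higher and 4.17% lower. Fst had 10 UMIs (0.755 CPM) in 1455 donor aerocytes and 91 UMIs (19.7 CPM) in 604 recipient aerocytes, a ratio of 0.0384 (0.0178 to 0.0739). The recipient signal lay in few barcodes. Among the 604 recipient aerocytes, 12 barcodes with at least 5 pericyte marker UMIs held 86 of the 91 Fst UMIs and 9 of the 12 Tgfb2 UMIs. In donor aerocytes 4 such barcodes held 6 of the 10 Fst UMIs. Without them Fst was 0.303 CPM in donor and 1.12 CPM in recipient aerocytes, Tgfb2 0.984 and 0.673 CPM, and Bambi 11.4 and 13.7 CPM in donor and recipient aerocytes. Bambi was then no longer apart, and Fst and Tgfb2 had too few UMIs left for the rule of 20. Fst in recipient aerocytes was 9.31 CPM without shared barcodes. With all barcodes, Bambi was 0.659 times as high in donor aerocytes (0.500 to 0.876).

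In venous cells 1 of 7 genes tested was lower in the donor library and 0 were higher, beside 7.68% of 7295 genes apart, 4.22% higher and 3.45% lower. That gene was Bambi, with 40 UMIs (60.9 CPM) in 68 donor cells and 75 UMIs (121 CPM) in 72 recipient cells, a ratio of 0.504 (0.335 to 0.750). With the gate limits doubled the log2 ratio was -0.60, against -0.99 otherwise, and was no longer counted as apart. Summed pericyte markers were 7.62 CPM in donor and 75.7 CPM in recipient venous cells, at which pericyte RNA would hold 0.345 CPM of Bambi in donor and 3.42 CPM in recipient cells. Tgfb2 was 210 CPM in donor and 201 CPM in recipient venous cells, a ratio of 1.04 (0.814 to 1.34). With all barcodes, Bambi was therefore lower in the donor library in all 3 endothelial types. In aerocytes it passed 1.5-fold only by a small margin that most other settings removed, and it was not apart without barcodes with pericyte markers. Tgfb1 and Smad7, with ratios from 0.892 to 1.34, were not apart in any of the 3 types. Whether the types differed in their donor to recipient ratio was not tested.

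**Figure D3:**
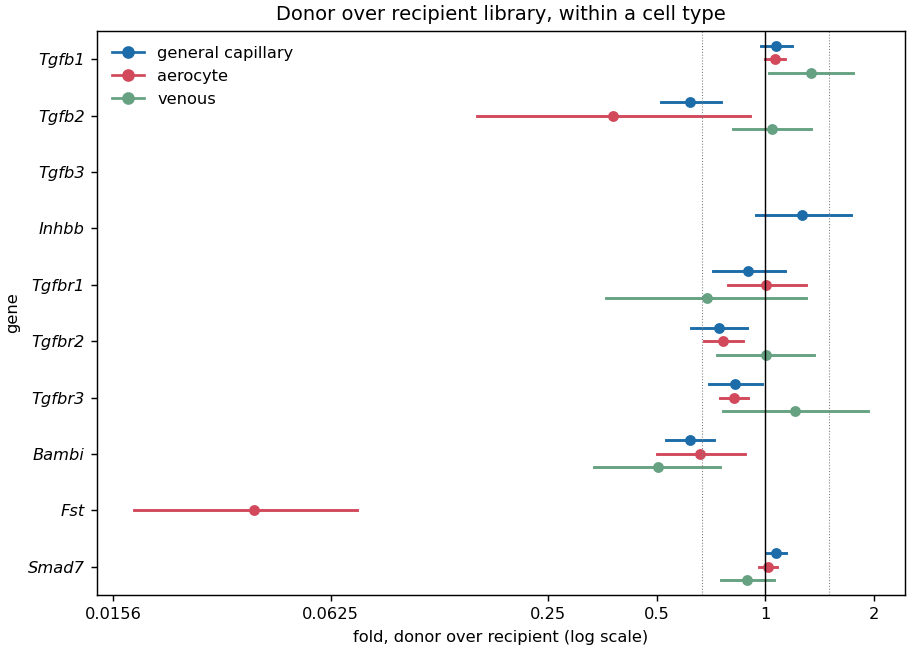
Ratio of CPM, donor over recipient library, for each gene tested in general capillary cells, aerocytes and venous cells (log axis). Lines are counting intervals and dotted lines mark 1.5-fold. Bambi lies left of equality in all 3 types, and Fst in aerocytes (0.0384) rests on 12 recipient barcodes with pericyte markers.

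The 2 capillary types differed in most of these genes, and in much the same way in each library. In the donor library 1 of 9 genes tested was higher in aerocytes than in general capillary cells and 5 were lower, where 41.3% of all 12523 genes were apart, 14.4% higher and 26.9% lower. In the recipient library 2 of 9 were higher and 5 lower, where 35% of 10930 genes were apart, 14.5% higher and 20.5% lower. The median log2 ratio of the 9 was -0.77 in the donor and -0.70 in the recipient library, beside -0.12 and -0.036 over all genes tested. Genes far apart between these types were thus common in general.

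Tgfbr3 was higher in aerocytes, by 2.19-fold in the donor library (2.02 to 2.39) and 2.21-fold in the recipient library (1.86 to 2.63). Tgfb2 was lower in aerocytes at 0.0276 times the general capillary level in the donor library (0.0146 to 0.0476) and 0.0452 times in the recipient library (0.0228 to 0.0814). Inhbb was lower at 0.0141 times in the donor library (0.00455 to 0.0332). In the recipient library aerocytes had 0 UMIs against 52, which gave a 32.7-fold lower value with a floor of 3 UMIs in place of the 0. The counting interval of that ratio reached down to 25.6-fold. Bambi, at 0.205 and 0.192 times, Tgfbr1, at 0.588 and 0.525 times, and Smad7, at 0.584 and 0.616 times, were lower too in the donor and recipient libraries. Both libraries were sorted from the same pooled lungs. The share of all genes that passed 1.5-fold the same way in both was not computed. Tgfb1 was 1.39 and 1.40 times as high in aerocytes and Tgfbr2 1.27 and 1.23 times, short of 1.5-fold.

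Fst in aerocytes was 0.928 times the general capillary level in the donor library (0.359 to 2.34) and 8.05 times in the recipient library (3.56 to 22.5), a difference that was not tested. The recipient value is carried by the 12 barcodes with pericyte markers, without which Fst was at 1.12 CPM in aerocytes and 2.45 CPM in general capillary cells.

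**Figure D4:**
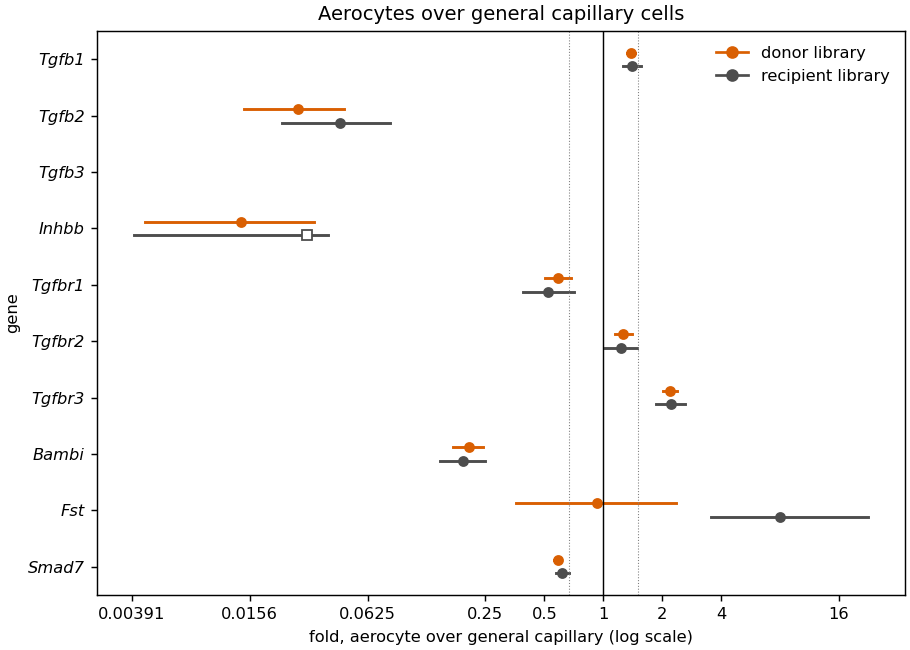
Ratio of CPM, aerocytes over general capillary cells, in the donor and recipient libraries (log axis). Lines are counting intervals, dotted lines mark 1.5-fold and the open square is a value set by a floor of 3 UMIs. Tgfb2, Inhbb, Bambi, Tgfbr1 and Smad7 lie left and Tgfbr3 right of equality in both libraries.

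The mesenchymal and remaining types of the recipient library were set against general capillary cells by the same rule. Pericytes had 5 genes higher (Fst, Bambi, Tgfb2, Tgfb3, Tgfbr2) and 3 lower (Tgfb1, Inhbb, Smad7) of 10 tested, where 45.3% of 10984 genes were apart, 22.1% higher and 23.2% lower. Alveolar fibroblasts had 3 higher (Tgfb3, Tgfbr2, Tgfbr3) and 4 lower (Tgfb1, Tgfb2, Inhbb, Smad7) of 10, where 48% of 11965 genes were apart, 23.5% higher and 24.4% lower. Myofibroblasts had 4 higher (Tgfb2, Tgfb3, Tgfbr1, Tgfbr3) and 3 lower (Tgfb1, Inhbb, Smad7) of 9, where 46.5% of 10352 genes were apart, 17.5% higher and 29% lower. Adventitial fibroblasts had 4 higher (Tgfb3, Tgfbr2, Tgfbr3, Fst) and 4 lower (Tgfb1, Inhbb, Bambi, Smad7) of 10, where 45.4% of 10175 genes were apart, 16.8% higher and 28.7% lower. Tgfb1, Inhbb and Smad7 were thus lower and Tgfb3 higher in all 4 mesenchymal types than in general capillary cells. The 4 comparisons share the same general capillary cells, and the share of all genes that went 1 way in all 4 was not computed. Inhbb in adventitial fibroblasts rests on 5 UMIs. Its log2 ratio of -1.69 became 0.46, a value set by the floor, with shared barcodes left out. The Tgfb3 ratios, from 17.1 (2.71 to 709) in pericytes to 357 (63.1 to 14195) in myofibroblasts, rest on 1 UMI in the general capillary cells.

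Alveolar type 1 cells had 2 genes higher (Tgfb2, Tgfbr2) and 6 lower of 8, where 54.4% of 10872 genes were apart, 23.9% higher and 30.5% lower. Lymphatic cells had 3 higher (Tgfb1, Tgfb3, Tgfbr2) and 4 lower (Tgfbr1, Inhbb, Bambi, Smad7) of 9, where 30.6% of 9659 genes were apart, 14.6% higher and 16% lower. Venous cells had 2 higher (Tgfb2 at 3.51 times, Tgfbr2 at 2.13 times) and 1 lower (Inhbb) of 8, where 18.7% of 9631 genes were apart, 7.56% higher and 11.2% lower.

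A list of 43 other genes of the pathway placed these patterns among latent ligand carriers, activators, further receptors and targets. In donor against recipient general capillary cells 2 of 30 tested were higher and 5 lower, where 3.65% of all genes were higher and 5.9% lower. In aerocytes 1 of 30 was higher and 3 lower, beside 1.21% and 4.17% of all genes, and in venous cells 1 of 26 was higher and 0 lower, beside 4.22% and 3.45%. Between the capillary types, Lrrc32, which holds latent TGF-beta at the cell surface, was at 2.79 CPM in donor aerocytes against 115 CPM in donor general capillary cells, and at 1.08 against 115 CPM in the recipient library. Nrros, a relative of Lrrc32, was at 29.4 against 81.1 CPM and at 24.2 against 71.2 CPM. Thbs1, a secreted activator, was at 13.3 against 108 CPM and at 19.9 against 154 CPM. Itgb5, a subunit of an integrin that can activate latent TGF-beta, ran the other way, 45.1-fold higher in donor aerocytes (226 against 5.01 CPM) and 41.1-fold higher in recipient aerocytes (251 against 6.11 CPM). The known target gene Ccn2 was lower in aerocytes, at 0.293 times the general capillary level in the donor library and 0.423 times in the recipient library. In all, 5 of 30 genes of the list were higher and 13 lower in donor aerocytes, beside 14.4% and 26.9% of all genes. In recipient aerocytes 6 of 30 were higher and 11 lower, beside 14.5% and 20.5%.

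In the other recipient types, Ltbp4, a latent TGF-beta binding protein, was at 1010 CPM in alveolar fibroblasts, 1214 in adventitial fibroblasts, 880 in myofibroblasts and 973 in lymphatic cells, against 48.0 CPM in recipient general capillary cells. Ltbp2 was at 711 CPM in pericytes against 5.70 CPM. Thbs1 reached 2863 CPM in myofibroblasts and 1113 CPM in alveolar fibroblasts against 154 CPM. In alveolar type 1 cells Itgb6, which forms the epithelial integrin that activates latent TGF-beta, was at 552 CPM against 1.22 CPM, and Fstl3, a relative of follistatin, at 130 against 2.04 CPM. The target genes Pmepa1 and Tgfbi were at 415 and 540 CPM in myofibroblasts, against 64.7 and 2.04 CPM in general capillary cells, while Pmepa1 was at 9.14 CPM in pericytes. The endothelial receptor genes Acvrl1 and Eng, at 1748 and 1918 CPM in recipient general capillary cells, were at 217 and 237 CPM in lymphatic cells. Smad6, the other inhibitory Smad, was at 11.9 CPM in lymphatic cells against 586 CPM, so both inhibitory Smad genes were low there.

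Free RNA of fibroblasts could add to the counts of other cells, and its size was read from the collagens Col1a1, Col1a2 and Col3a1. Their sum in donor types was 0.0213% to 0.0503% of the level in recipient fibroblasts, and in recipient types it was 0.590% to 1.14%. Multiplied by each gene's fibroblast level, this gave the CPM that fibroblast RNA would hold. It reached at least 10% of the level in 6 values, all in the recipient library. They were Tgfb3 in general capillary cells (153%) and aerocytes (45.5%), Tgfb2 in aerocytes (19.8%), and Tgfb3 (20.8%), Tgfbr3 (50.9%) and Bambi (13.1%) in alveolar type 1 cells. In all other endothelial and alveolar type 1 values with a UMI the estimate stayed below 10% of the level, at most 9.39% for Smad7 in lymphatic cells. The few Tgfb3 UMIs of recipient blood endothelium were thus of the size of the estimate. Tgfb3 in lymphatic cells was at 64.5 CPM against an estimate of 0.437 CPM.

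Pericytes were read in the same way, since they hold the most Fst, Bambi and Tgfb2. Estimated from pericyte markers, 12 values reached 10% of the level. Fst in recipient general capillary cells was 2.44 CPM against an estimate of 6.06 CPM, and in recipient aerocytes 19.7 CPM against 17.1 CPM, so no Fst level of blood endothelium stood above the pericyte estimate by more than its counting interval. Bambi in recipient aerocytes was 17.3 CPM against 4.89 CPM, and Tgfb2 in recipient aerocytes 2.59 CPM against 3.10 CPM. The Fst estimate was 252% of the measured level in donor general capillary cells and 744% in recipient venous cells, so these estimates can be too high. In recipient aerocytes the pericyte markers were at 108 CPM, but at 25.1 CPM without the 12 barcodes with pericyte markers. The estimates there thus include those barcodes and not free RNA alone.

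**Figure D5:**
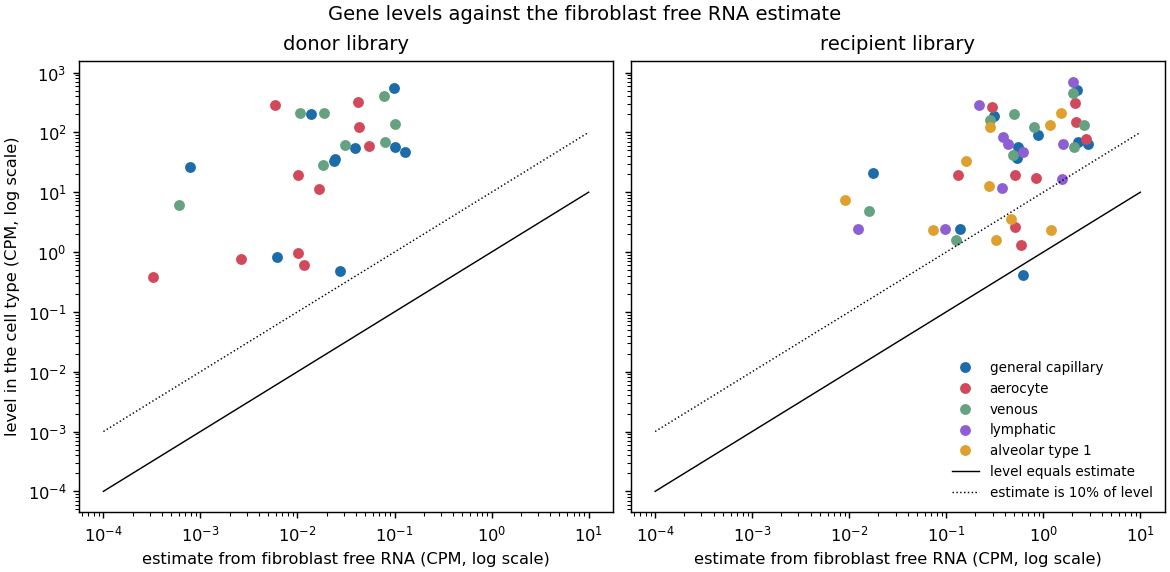
Level of each gene in endothelial and alveolar type 1 cells (CPM, log axis) against the CPM that fibroblast free RNA would hold (log axis), in the donor library (left) and the recipient library (right). The full line is equality and the dotted line 10% of the level; values of 0 are not drawn. Donor points lie further above the lines, since collagens were at 0.0213% to 0.0503% of the fibroblast level there and at 0.590% to 1.14% in the recipient library.

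Genes most like these in pattern were found among 6197 genes that reached 50 CPM, by Pearson's r of log2(CPM + 1) over 12 points, the 3 donor and 9 recipient types. The points share 2 libraries and 3 types occur in both, so the values only describe. Tgfb1 was most like Sh3bgrl3 (0.98), Tgfb2 like Spry2 (0.93) and Tgfb3 like Kcnj8 (0.98). Among the receptors, Tgfbr1 was most like Sowahc (0.94), Tgfbr2 like Srpk2 (0.91) and Tgfbr3 like Paxx (0.93). Among the inhibitors, Fst was most like Aff2 (0.97), Bambi like Baz1b (0.95) and Smad7 like Oasl2 (0.95).

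The genes lie apart in the genome (GENCODE M21, GRCm38), all as protein-coding genes. Tgfb1 (ENSMUSG00000002603) spans chr7:25687002-25705077, Tgfb2 (ENSMUSG00000039239) chr1:186622792-186705989 and Inhbb (ENSMUSG00000037035) chr1:119415465-119422248. Tgfb3 (ENSMUSG00000021253) spans chr12:86056745-86079041, Tgfbr1 (ENSMUSG00000007613) chr4:47353222-47414931, Tgfbr2 (ENSMUSG00000032440) chr9:116084293-116175360 and Tgfbr3 (ENSMUSG00000029287) chr5:107106570-107289629. Fst (ENSMUSG00000021765) spans chr13:114452290-114458951, Bambi (ENSMUSG00000024232) chr18:3507923-3516404 and Smad7 (ENSMUSG00000025880) chr18:75367529-75395935.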

How the data were processed

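Single-cell RNA libraries were made by the submitters from sorted lung cells. The authors deposited filtered matrices of unnormalized UMI counts, aligned to mm10 per the labels' protocols. Cell Ranger 4.0.0 is named in the file headers and in the submitters' processing notes, whereas the labels' protocol names 3.0.1. The remaining dataset that the protocol integrates was not used here.

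Barcodes beyond 3 scaled median absolute deviations of their library in genes, UMIs or mitochondrial share were left out (1332 donor, 473 recipient). The highest Scrublet scores (scanpy 1.11.5) were then removed, as 5.06% of donor and 3.03% of recipient barcodes before the filter (284 and 102), because the automatic threshold marked 2 donor and 135 recipient barcodes. Shared barcodes were left out where they had fewer UMIs. They numbered 816, with the smaller copy in the donor library for 736 and in the recipient library for 80.

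A cell was given the type with the highest marker sum: at least 10 UMIs from 2 or more markers, 1.5 times the next type and, for its lineage, at least 3 UMIs and 3 times any other lineage. Arterial cells needed 3 markers and 0.3 times the sums of the other endothelial types. No type was given to 342 donor cells (7.47%) and 316 recipient cells (9.88%). Types under 50 cells (among them 31 donor and 21 recipient arterial cells) are given as counts only.

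Counts were summed per library and type and scaled to CPM, with exact Poisson intervals for levels, exact conditional binomial intervals for ratios and exact binomial intervals for shares, in Python 3.11.15 with scipy 1.17.1. A sum of 0 took a floor of 3 counts over the group. The ratio step was tested on simulated data. Settings varied were the barcode filter, doublet scores, shared barcodes, gate limits, scaling, cell weights, free RNA, the fold limit and the count minimum. All 10 members are reported. Other pathway genes are named where called, at 50 CPM in the higher sum and 2-fold apart, a selection of which is printed. Some results withheld for evaluation are not reported here. The 10 members and all lists were chosen with earlier results of these data known.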

Additional observations from a re-analysis of the deposited data

Results flagged for a closer look

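In 3 cases a gene went in opposite directions in a pair of groups under the same contrast, with 1 of the pair at least 1.5-fold apart. None of these differences was tested. Fst, in aerocytes over general capillary cells, had a log2 ratio of -0.11 among donor cells and 3.01 among recipient cells, where 86 of the 91 aerocyte UMIs lay in 12 barcodes with pericyte markers. Tgfb2, in donor over recipient, had a log2 ratio of -0.69 in general capillary cells and 0.06 in venous cells. The same gene had -1.40 in aerocytes, from 13 donor and 12 recipient UMIs, beside that venous value of 0.06. Of the 12 recipient UMIs, 9 lay in the 12 barcodes with pericyte markers. Without such barcodes Tgfb2 was 0.984 CPM in donor and 0.673 CPM in recipient aerocytes.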

How the results depend on the processing

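No paired analysis was possible because each group was 1 library. Of 828 ratios of single genes under other settings, 788 kept their side of the limit, 32 fell short of it, 5 passed it and 3 reversed. Direction was compared only for ratios that passed the limit before or after the change. Genes under 20 UMIs in a setting were left out. The 70 ratios at a minimum of 1 count could not change, since only genes already tested were read. Of 1200 levels, 1145 moved by less than their counting interval. The count of 2 genes apart between donor and recipient general capillary cells was 0 at a 2-fold limit and 1 without cells with venous markers, and was also 2 with shared barcodes left out of both libraries. The count of 3 in aerocytes was 1 with shared barcodes left out of both libraries, 1 without doublet scores, 1 with equal weight for every cell, 1 with fibroblast free RNA subtracted, 0 with the gate limits doubled and 0 without barcodes with pericyte markers. In these last settings Fst and Tgfb2 had under 20 UMIs and were not tested, so only the loss of Bambi is a measured change. Across settings the log2 ratio of Bambi lay between -0.60 and -0.26 in aerocytes, -0.70 and -0.65 in general capillary cells and -1.21 and -0.60 in venous cells. The count of 1 in venous cells was 0 with the gate limits doubled and 0 at 2-fold. At least 10% was reached by 6 values with the fibroblast reference and by 12 with the pericyte reference, which reads another source of RNA. With Col1a2 alone as the fibroblast reference, Smad7 in lymphatic cells also passed 10%, at 11.3% against 9.39% with 3 collagens. Reversals were Fst in aerocytes over general capillary cells of the donor library, at 1.82 without doublet scores (-0.11 otherwise), and, with shared barcodes left out of both libraries, adventitial fibroblasts over general capillary cells for Tgfb2 at -2.55 (0.55 otherwise) and for Inhbb at 0.46 (-1.69 otherwise). That Inhbb value is set by the floor of 3 counts, and 18 adventitial cells were left. Tgfb2 was at 9.94 CPM in those cells, the lowest level above 0 of the 10 genes there, so its reversal rests on few UMIs. For the other changes the cause was not tested. Settings chosen after seeing the data were the removal of barcodes with pericyte markers, the removal of cells with venous markers and the pericyte reference. Depth limits Tgfb3, Fst and Inhbb in the types with few UMIs and all values of the venous and lymphatic types.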
